A study of Mus musculus with 9 samples.

Results

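The 45 genes described here encode proteins that act in mitosis, from the cyclins that start it to the machinery that splits the cell. They were named by function, and a gene was kept if it had at least 10 counts in at least 3 libraries. All 45 passed, of 21898 genes in the table, 13240 of which met the same rule. Liver RNA of C57BL/6 mice was measured by RNA-seq in 9 libraries, 3 for each of 3 groups into which the mice had been randomly placed. The normal group, wild type in the labels, received saline. The model group was fed the MCD (methionine- and choline-deficient) diet, which gives mice a fatty and inflamed liver and serves as a model of metabolic-associated fatty liver disease. The TA group had the disease induced with that diet and was treated with tormentic acid (TA), a plant triterpenoid, at a dose called high in the labels. The amount of TA, its route, the time on diet, the sex and the age of the mice, and whether the model and TA groups received saline, are not stated in the sources used here. That diet is also known to make mice lose weight, and no chow-fed group with TA was analysed here.

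Mitosis is driven by CDK1 bound to B-type cyclins. Spindle motors and kinetochores then align the condensed chromosomes, the spindle checkpoint holds back the anaphase-promoting complex until all are attached, and the central spindle and contractile ring divide the cell. Hepatocytes of an adult liver rarely divide, yet they re-enter the cycle after injury or loss of tissue, and inflamed liver also holds dividing macrophages, lymphocytes and stellate cells. The genes are transcribed mainly from S phase to mitosis. Many of their promoters hold a pair of short elements: CCAAT boxes, bound by NF-Y, and the cell cycle genes homology region (CHR), bound by complexes built on MuvB. MuvB joins the pocket proteins p107 or p130 to form the DREAM repressor in resting cells, and B-MYB and FOXM1 to activate the genes in dividing cells.

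Promoters of 5 members are shown because they hold both elements and belong to genes whose levels follow below. Each is read 5′ to 3′ on the strand of its gene, from 150 bases before to 30 bases after the transcription start, from RefSeq on GRCm38.p6. Capitals mark the CHR core TTTGAA and the CCAAT box, on either strand (TTCAAA and ATTGG where the match is on the other strand). The window of Mki67 (ID ENSMUSG00000031004) is chr7:135716350-135716529 (minus strand), that of Top2a (ENSMUSG00000020914) chr11:99024160-99024339 (minus strand), that of Spc25 (ENSMUSG00000005233) chr2:69206184-69206363 (minus strand), that of Cenpa (ENSMUSG00000029177) chr5:30666736-30666915 (plus strand) and that of Racgap1 (ENSMUSG00000023015) chr15:99651627-99651806 (minus strand).
Mki67: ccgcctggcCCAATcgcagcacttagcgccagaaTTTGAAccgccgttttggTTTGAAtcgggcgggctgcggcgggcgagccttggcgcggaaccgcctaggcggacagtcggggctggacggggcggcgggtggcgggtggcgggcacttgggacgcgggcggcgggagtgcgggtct
Top2a: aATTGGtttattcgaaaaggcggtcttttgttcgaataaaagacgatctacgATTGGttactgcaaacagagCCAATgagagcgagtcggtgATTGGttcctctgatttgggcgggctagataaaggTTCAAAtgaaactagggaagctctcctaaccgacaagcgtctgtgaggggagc
Spc25: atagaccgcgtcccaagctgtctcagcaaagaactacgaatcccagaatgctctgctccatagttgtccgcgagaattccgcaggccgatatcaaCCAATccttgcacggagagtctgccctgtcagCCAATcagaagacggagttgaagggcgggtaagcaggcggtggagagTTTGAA
Cenpa: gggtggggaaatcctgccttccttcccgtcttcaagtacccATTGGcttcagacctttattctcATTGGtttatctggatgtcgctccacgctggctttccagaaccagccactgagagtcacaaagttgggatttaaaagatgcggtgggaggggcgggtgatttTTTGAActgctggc
Racgap1: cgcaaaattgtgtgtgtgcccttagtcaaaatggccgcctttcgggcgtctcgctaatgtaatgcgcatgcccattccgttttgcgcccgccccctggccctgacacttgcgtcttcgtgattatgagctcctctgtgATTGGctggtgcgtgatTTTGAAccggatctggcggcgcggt

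In Mki67 2 CHR cores lay upstream, with their first bases 116 and 98 bases before the start. In Top2a 2 cores lay upstream, 179 bases before the start, outside the stretch shown, and, on the other strand, 23 bases before it. In Spc25, Cenpa and Racgap1 it lay just downstream, 25, 17 and 6 bases after the start. Promoters of 38 of the 45 members were matched in the RefSeq table, each covering 250 bases before to 50 bases after the start. Ccna2, Pbk, Aurkb, Tpx2, Dlgap5, Kif20a and Smc4 were not matched. TTTGAA on either strand stood in 28 of the 38 promoters, or 73.7%, against 14.8% of the promoters of 10512 tested genes and 20.2% of 27025 genes in the RefSeq table. CCAAT on either strand stood in 73.7% of them too, against 42.7% of the tested genes. Both elements were present in 24 members, or 63.2%, against 5.94% of the tested genes. The related element TTTAAA, which reads the same on both strands and cannot match at the same place as TTTGAA, stood in 9 members, or 23.7%, against 11.2%.

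Place separated the members further. Of 36 TTTGAA matches in the members, 27 lay within 50 bases of the start, and a match at that distance was present in 26 of the 38 promoters, or 68.4%, against 3.94% of tested genes. That distance was chosen after the positions had been seen. Ccnb1, Nek2, Melk, Bub1, Mad2l1, Cenpe, Nuf2, Birc5, Nusap1 and Ncaph held no TTTGAA in the window. A match in letters is a description of the sequence and shows no binding.

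**Figure D1:**
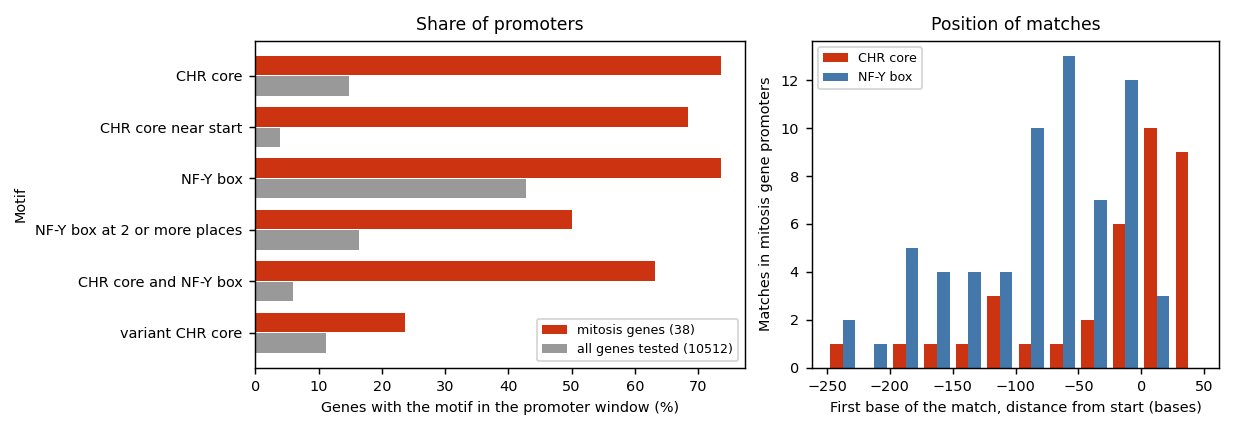
Share of promoters holding each element (percent) in the members and in all tested genes, and the distance of each match in the members from the transcription start (bases). The CHR core was in 73.7% of the members and 14.8% of tested genes, and 27 of its 36 matches lay within 50 bases of the start.

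Library totals ran from 13950065 to 16475794 counts for normal livers, 15519086 to 16086294 for model and 13710002 to 16464308 for TA livers. Levels are given as CPM, counts scaled to a common library size after correction with TMM, a method that sets the typical gene equal between libraries. The TMM factors were 0.824 to 0.842 in the normal, 1.19 to 1.44 in the model and 0.801 to 1.01 in the TA libraries. With library totals in place of these factors the median log2 fold change of all 13200 tested genes was 0.69 for model against normal and -0.59 for TA against model. CPM values and fold changes below are therefore relative to the typical gene, except where library totals are named. A gene is called, and said to rise or fall, at a Benjamini-Hochberg adjusted p under 0.05 in edgeR's quasi-likelihood test over all tested genes. With library totals 7269 of the 13200 tested genes rose and 831 fell in model against normal. In TA against model 401 rose and 5721 fell with that scaling. Counts with library totals below are to be read beside these. Whether every library is a different mouse is not stated in the labels, so each p-value reflects the spread from library to library and no more. Both main comparisons use the same 3 model libraries, and TA against normal shares libraries with each.

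Most of the 45 members were higher in livers on the MCD diet. In model against normal livers 43 of the 45 members rose, where 25.4% of all tested genes rose, and none fell, where 22.6% of tested genes fell. With edgeR, 0 members were lower even at an unadjusted p under 0.05, where 26.3% of tested genes were. With DESeq2 or limma-voom 0 were called lower. The median log2 fold change of the 45 was 2.78, or 6.87-fold, against 0.00 for all tested genes, and the members ranged from 0.71 for Aurka to 5.17 for Cenpe. For 43 members all 3 model libraries lay above all 3 normal ones, as was so for 31.3% of tested genes. In bulk liver more dividing cells and more RNA of these genes per cell cannot be told apart. Of the 45, 12 members would have missed the count minimum without the model libraries, and Melk passed through those libraries alone. Of the other 33 members 31 rose.

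The summed level of the 45 members was 66.6, 85.4 and 68.5 CPM in the normal libraries, 358.9, 407 and 251 in the model libraries and 131.0, 131.0 and 86.8 in the TA libraries. The groups did not overlap, and their means differed 4.61-fold between model and normal and 2.91-fold between model and TA. TA libraries were also above every normal library, with a mean 1.58-fold that of normal. The scale per length (FPKM, as the authors gave it) uses library totals without the TMM factors, so its group differences are not on the CPM scale. By FPKM the median over members of the group mean was 0.188 in normal, 1.80 in model and 0.355 in TA livers.

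**Figure D2:**
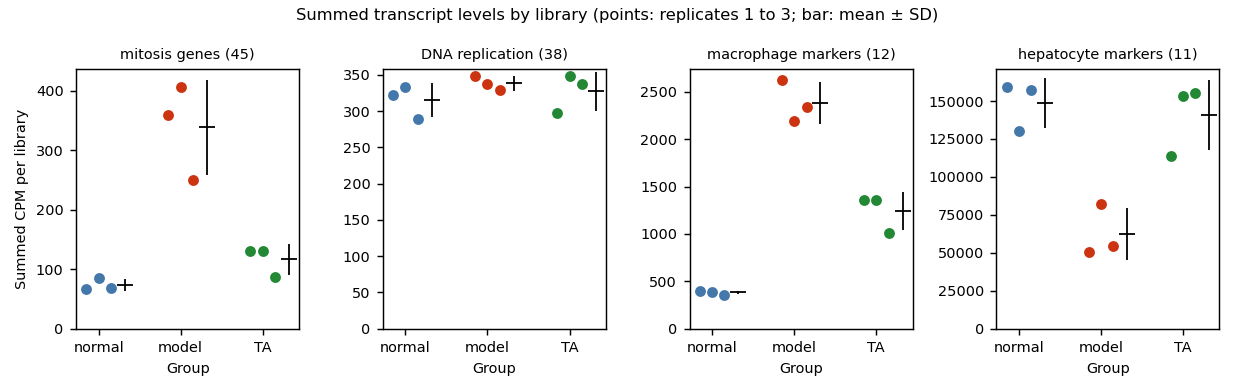
Summed level in each library (CPM, points) of the 45 members, DNA replication genes, macrophage markers and hepatocyte markers, with the mean ± SD of each group of 3. For the members the normal libraries lie between 66.6 and 85.4 CPM, the TA libraries between 86.8 and 131.0, and the model libraries between 251 and 407.

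Cdk1 and its cyclins set the time of mitotic entry, and all 4 rose in model livers. Cdk1, the kinase itself, stood at 1.99, 0.937 and 1.19 CPM in normal, 7.197, 7.83 and 5.28 in model and 3.57, 2.78 and 2.001 in TA livers. Every model library was above every TA library, and these were in turn above every normal one. The log2 fold change of Cdk1 in model against normal was 2.29 ± 0.36 (adjusted p = 0.000437), and in TA against model it fell by 1.27 ± 0.34 log2 units (adjusted p = 0.0214). That fall lost its call without model replicate 1 (adjusted p = 0.0737), TA replicate 2 (0.0570) or TA replicate 3 (0.0781). Ccna2, cyclin A2, which acts from S phase to early mitosis, stood at 0.811, 1.704 and 1.04 CPM in normal, 7.68, 9.401 and 5.33 in model and 1.93, 0.9799 and 1.91 in TA livers. The TA and normal libraries of Ccna2 overlapped, and all model libraries lay above both. Ccna2 rose by 2.66 ± 0.40 log2 units (adjusted p = 0.000293) and fell with TA by 2.20 ± 0.38 log2 units (adjusted p = 0.00388). The B-type cyclins Ccnb1 and Ccnb2 rose by 3.16 ± 0.70 log2 units (adjusted p = 0.00343) and 2.92 ± 0.51 log2 units (adjusted p = 0.000784). Ccnb2 fell with TA by 2.01 ± 0.47 log2 units (adjusted p = 0.0125), a call that ended without TA replicate 3 (adjusted p = 0.0514), while Ccnb1 had a log2 fold change of -1.89 ± 0.63 (adjusted p = 0.0514) and was not called. In 7 of 17 other settings Ccnb1 was called lower with TA, among them DESeq2 (adjusted p = 0.0136) and the replicate number as a block (0.0286). Ccna2 shares 12.5% of its exon bases with Exosc9 on the other strand, and whether strand was used in counting is not stated. The same limit applies to Ube2c (22.8%, Tnnc2), Kif4 (15.1%, Pdzd11), Ncapg (13.4%, Lcorl) and Prc1 (11.1%, Rccd1). Tnnc2 itself had 0 counts in the normal, model and TA libraries. Smaller overlaps on the other strand were found for Plk1, Nek2, Cdca8, Nusap1 and Cdc20.

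Of the mitotic kinases Plk1, Melk and Pbk rose in model livers, and Aurka and Nek2 were not called. Aurka, the kinase of spindle poles, stood at 3.76, 3.58 and 4.67 CPM in normal, 5.83, 9.67 and 4.16 in model and 3.38, 2.205 and 2.96 in TA livers. Model replicate 3 lay among the normal libraries and model replicate 2 was highest, and all TA libraries lay below all normal ones. Its log2 fold change was 0.71 ± 0.33 (adjusted p = 0.0998) in model against normal, which became a call without model replicate 3 (0.95, adjusted p = 0.0411). Nek2, a kinase that splits the centrosomes, stood at 3.98, 4.94 and 4.52 CPM in normal, 4.86, 11.03 and 6.801 in model and 6.71, 3.02 and 1.48 in TA livers. All 3 groups of Nek2 overlapped, and its log2 fold changes were 0.75 ± 0.45 (adjusted p = 0.193) in model against normal and -0.99 ± 0.46 (adjusted p = 0.141) in TA against model. The latter was called without TA replicate 1 (-1.74, adjusted p = 0.0163). Plk1, which drives centrosome maturation and many later steps, rose by 3.04 ± 0.45 log2 units (adjusted p = 0.000298) and fell with TA by 1.77 ± 0.41 log2 units (adjusted p = 0.0119). Melk rose by 3.07 ± 0.61 log2 units (adjusted p = 0.00186) on 7 counts in all normal libraries, and Pbk rose by 2.58 ± 0.75 log2 units (adjusted p = 0.0144). The call of Pbk ended without normal replicate 1 (2.39, adjusted p = 0.0553) or normal replicate 2 (2.13, adjusted p = 0.0526). With TA Melk fell by 2.52 ± 0.58 log2 units (adjusted p = 0.0113), though not without model replicate 1 (adjusted p = 0.0533), and Pbk had -1.70 ± 0.69 log2 units (adjusted p = 0.09696). Aurka fell with TA by 1.19 ± 0.34 log2 units (adjusted p = 0.0274), and that call ended without model replicate 1 or 2 or TA replicate 2 or 3 (adjusted p from 0.0594 to 0.0880), with the replicate number as a block (0.0614) and with limma-voom (0.0598).

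The spindle checkpoint, which delays anaphase until chromosomes are attached, rose in all 4 members and fell with TA in all 4. Mad2l1, which forms the inhibitor of the anaphase-promoting complex, stood at 4.79, 2.81 and 4.001 CPM in normal, 9.14, 13.04 and 7.54 in model and 3.87, 4.65 and 4.61 in TA livers. Model libraries lay above the rest, while normal and TA libraries overlapped. Mad2l1 rose by 1.35 ± 0.28 log2 units (adjusted p = 0.00226) and fell with TA by 1.18 ± 0.28 log2 units (adjusted p = 0.0126). Bub1b, the BubR1 partner in that inhibitor, stood at 1.77, 0.767 and 0.3705 CPM in normal, 9.36, 7.77 and 5.72 in model and 2.18, 3.02 and 2.17 in TA livers. All 3 groups were apart, in the order normal, TA and model. Bub1b rose by 2.96 ± 0.46 log2 units (adjusted p = 0.000389) and fell with TA by 1.63 ± 0.42 log2 units (adjusted p = 0.0181), a call that ended without model replicate 1 (adjusted p = 0.0771) or TA replicate 3 (0.0666). The checkpoint kinases Bub1 and Ttk rose by 3.33 ± 0.50 log2 units (adjusted p = 0.000331) and 3.99 ± 0.75 log2 units (adjusted p = 0.00129), the latter with 4 counts in all normal libraries and 0 in normal replicate 1. Bub1 fell with TA by 2.08 ± 0.45 log2 units (adjusted p = 0.00896). Ttk fell by 1.999 ± 0.61 log2 units (adjusted p = 0.0352), and lost the call without any 1 of model replicates 1 to 3, TA replicates 2 and 3 or normal replicate 2 (adjusted p from 0.0529 to 0.122) and with the replicate block (0.0707).

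Among kinetochore and centromere genes the largest rises stood beside the smallest. Cenpe, the kinesin that carries chromosomes to the middle of the spindle, rose by 5.17 ± 0.98 log2 units (adjusted p = 0.00139) from 6 counts in all normal libraries to 370 in the model libraries. Cenpf and the outer kinetochore subunits Ndc80 and Nuf2 rose by 3.99 ± 0.51 log2 units (adjusted p = 0.000103), 4.06 ± 0.60 log2 units (adjusted p = 0.000283) and 3.81 ± 0.52 log2 units (adjusted p = 0.000166). Cenpa, the histone variant that marks centromeres, stood at 4.57, 6.22 and 4.59 CPM in normal, 11.7, 12.3 and 7.75 in model and 5.44, 5.96 and 2.78 in TA livers. Model libraries were highest, and the TA and normal libraries of Cenpa overlapped. It rose by 1.05 ± 0.30 log2 units (adjusted p = 0.01396), a call that ended without normal replicate 1 (adjusted p = 0.0516) or 3 (0.0535), and fell with TA by 1.15 ± 0.30 log2 units (adjusted p = 0.0198), a call that ended without model replicate 1 (0.0714) or TA replicate 3 (0.0606). Spc25, which sits in 1 complex with Ndc80 and Nuf2, stood at 2.51, 5.54 and 4.15 CPM in normal, 8.48, 9.56 and 6.54 in model and 5.44, 14.1 and 7.31 in TA livers. Its highest value was that of TA replicate 2, and the TA libraries spanned the range of the model libraries. Spc25 rose by 1.01 ± 0.38 log2 units (adjusted p = 0.0429), and the call ended without normal replicate 1 (0.75, adjusted p = 0.150), normal replicate 3 (0.0943), model replicate 1 (0.0936), model replicate 2 (0.10) or TA replicate 3 (0.0527). In TA against model its log2 fold change was 0.12 ± 0.36 (adjusted p = 0.833), the only positive one among the members, with a 95% interval from -0.67 to 0.91. Nuf2 and Cenpf fell with TA by 2.05 ± 0.44 log2 units (adjusted p = 0.00879) and 2.25 ± 0.44 log2 units (adjusted p = 0.00594). Ndc80 fell by 1.74 ± 0.48 log2 units (adjusted p = 0.0246), and the call ended without model replicate 1 or 2 or any 1 of the TA replicates (adjusted p from 0.0594 to 0.0899). Cenpe fell by 2.27 ± 0.75 log2 units (adjusted p = 0.0486), and the call ended in 10 of 17 other settings, 8 of them with 1 library left out (normal replicate 2 or 3 or any model or TA replicate), with adjusted p up to 0.160.

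The chromosomal passenger complex, which corrects wrong attachments and then guides cytokinesis, rose in all 3 members. Cdca8 (borealin) stood at 1.47, 1.11 and 1.48 CPM in normal, 4.68, 4.89 and 4.46 in model and 2.18, 1.47 and 1.83 in TA livers. All model libraries were above the others, and TA replicate 2 lay at the level of normal livers. Cdca8 rose by 1.78 ± 0.31 log2 units (adjusted p = 0.0008) and fell with TA by 1.35 ± 0.30 log2 units (adjusted p = 0.0101). Birc5 (survivin) stood at 0.516, 1.02 and 1.11 CPM in normal, 5.74, 5.54 and 3.21 in model and 2.72, 1.55 and 1.65 in TA livers. Its groups were apart, in the order normal, TA and model. Birc5 rose by 2.44 ± 0.42 log2 units (adjusted p = 0.000761) and fell with TA by 1.27 ± 0.39 log2 units (adjusted p = 0.03602), and that call ended without model replicate 1 or 2, TA replicate 2 or 3 or normal replicate 2 (adjusted p up to 0.130) and with the replicate block (0.0653). Aurkb, the kinase of the complex, rose by 2.01 ± 0.43 log2 units (adjusted p = 0.00276) and fell with TA by 2.11 ± 0.43 log2 units (adjusted p = 0.00723).

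Spindle motors and microtubule binders rose in all 8 members. Tpx2, which activates Aurora A on spindle microtubules, stood at 0.737, 0.767 and 0.889 CPM in normal, 7.15, 12.7 and 6.67 in model and 4.65, 1.797 and 1.91 in TA livers. The 3 groups of Tpx2 were apart, TA replicate 1 being closest to the model libraries. Tpx2 rose by 3.45 ± 0.45 log2 units (adjusted p = 0.000132) and fell with TA by 1.63 ± 0.40 log2 units (adjusted p = 0.0145), not called without TA replicate 3 (adjusted p = 0.0598). Kif11, the motor that pushes spindle poles apart, stood at 0.737, 3.49 and 1.704 CPM in normal, 8.92, 8.15 and 6.06 in model and 2.54, 1.96 and 2.17 in TA livers. Normal replicate 2 exceeded all TA libraries, and the model libraries stood above both groups. Kif11 rose by 1.97 ± 0.44 log2 units (adjusted p = 0.00338) and fell with TA by 1.78 ± 0.43 log2 units (adjusted p = 0.0141), not called without model replicate 1 (0.0542) or TA replicate 3 (0.0513). The other rises were 3.66 ± 0.57 log2 units (adjusted p = 0.000382) for Hmmr, a spindle-pole protein, 3.49 ± 0.74 log2 units (adjusted p = 0.00254) for the microtubule depolymerase Kif2c and 3.11 ± 0.55 log2 units (adjusted p = 0.000888) for the chromokinesin Kif4. Dlgap5 (HURP) rose by 3.06 ± 0.73 log2 units (adjusted p = 0.00514), Nusap1 by 2.27 ± 0.39 log2 units (adjusted p = 0.000754) and Kif15, which backs up Kif11, by 2.45 ± 0.52 log2 units (adjusted p = 0.00269). The value of Dlgap5 was 4.73 without normal replicate 2. With TA Hmmr fell by 2.22 ± 0.50 log2 units (adjusted p = 0.0106), and Kif2c, Dlgap5 and Nusap1 fell by 2.09 ± 0.65 log2 units (adjusted p = 0.0389), 2.36 ± 0.68 log2 units (adjusted p = 0.0287) and 1.64 ± 0.37 log2 units (adjusted p = 0.0112). The calls of Kif2c, Dlgap5 and Nusap1 ended without model replicate 1 (adjusted p = 0.109, 0.0884 and 0.0606). Those of Kif2c and Dlgap5 ended also without model replicate 3 (0.0556 and 0.0675), TA replicate 2 (0.0838 and 0.0866) or TA replicate 3 (0.0999 and 0.101), and that of Kif2c without normal replicate 2 (0.0534) or model replicate 2 (0.0727). Kif15 and Kif4 had log2 fold changes of -1.34 ± 0.48 (adjusted p = 0.0642) and -1.16 ± 0.47 (adjusted p = 0.0976) and were not called. Kif15 was called lower with DESeq2 (adjusted p = 0.0322) and with library totals (0.0121), and Kif4 with library totals (0.0196).

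Genes of the central spindle and cytokinesis rose in all 6 members and fell with TA in all 6. Racgap1, which with Kif23 forms the centralspindlin complex, stood at 1.18, 1.704 and 1.04 CPM in normal, 10.1, 9.84 and 6.97 in model and 3.99, 3.103 and 1.74 in TA livers. Its 3 groups were apart. Racgap1 rose by 2.78 ± 0.36 log2 units (adjusted p = 0.000115) and fell with TA by 1.59 ± 0.33 log2 units (adjusted p = 0.00775). Ect2, the exchange factor that switches on RhoA at the cell equator, stood at 3.17, 3.75 and 0.815 CPM in normal, 5.83, 14.8 and 6.11 in model and 2.78, 0.735 and 0.522 in TA livers. Model replicate 2 was far above the other model libraries, and TA replicates 2 and 3 lay below all normal ones. Ect2 rose by 1.79 ± 0.63 log2 units (adjusted p = 0.0348), a call that ended without normal replicate 1 (1.97, adjusted p = 0.0626), normal replicate 3 (1.36, 0.108) or model replicate 2 (1.21, 0.137). It had the largest fall with TA among the members, 2.66 ± 0.66 log2 units (adjusted p = 0.0161), which was not called without TA replicate 2 (adjusted p = 0.0551) or 3 (0.0630). Prc1, which bundles the central spindle, and Anln, which links the ring to the membrane, rose by 3.17 ± 0.48 log2 units (adjusted p = 0.000328) and 3.03 ± 0.37 log2 units (adjusted p = 7.82e-05) and fell by 1.98 ± 0.44 log2 units (adjusted p = 0.009404) and 1.91 ± 0.34 log2 units (adjusted p = 0.00435). The kinesins Kif20a and Kif23 rose by 2.88 ± 0.55 log2 units (adjusted p = 0.00135) and 2.64 ± 0.51 log2 units (adjusted p = 0.00153) and fell by 2.13 ± 0.51 log2 units (adjusted p = 0.0139) and 2.10 ± 0.49 log2 units (adjusted p = 0.0124), with Kif23 not called without TA replicate 3 (adjusted p = 0.0531). Cdc23, on the other strand, covers 29.3% of the exon bases of Kif20a.

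All 6 chromosome structure genes rose in model livers and fell with TA. Smc4, a condensin ATPase, stood at 13.3, 13.9 and 11.7 CPM in normal, 38.8, 32.2 and 29.3 in model and 13.7, 24.5 and 20.6 in TA livers. All model libraries were highest, TA replicates 2 and 3 came next, and TA replicate 1 lay at the normal level. Smc4 rose by 1.37 ± 0.21 log2 units (adjusted p = 0.000379) and fell with TA by 0.77 ± 0.21 log2 units (adjusted p = 0.0215), not called without model replicate 1 (adjusted p = 0.0902) or TA replicate 3 (0.0549). Mki67, the Ki-67 antigen that coats mitotic chromosomes and marks cycling cells, stood at 3.02, 5.197 and 2.001 CPM in normal, 38.1, 42.1 and 27.6 in model and 10.03, 13.1 and 5.65 in TA livers. The 3 groups of Mki67 were apart. Mki67 rose by 3.41 ± 0.37 log2 units (adjusted p = 3.21e-05) and fell with TA by 1.90 ± 0.33 log2 units (adjusted p = 0.00408). Top2a, the topoisomerase that untangles sister chromatids, stood at 2.43, 3.92 and 2.82 CPM in normal, 23.97, 16.3 and 14.7 in model and 5.499, 5.55 and 2.001 in TA livers. Model libraries were well above the others, and normal and TA libraries overlapped. Top2a rose by 2.59 ± 0.36 log2 units (adjusted p = 0.0002001) and fell with TA by 2.06 ± 0.35 log2 units (adjusted p = 0.00372). Smc2, the partner of Smc4, and the condensin I subunits Ncapg and Ncaph rose by 1.79 ± 0.30 log2 units (adjusted p = 0.000642), 2.497 ± 0.66 log2 units (adjusted p = 0.00902) and 2.27 ± 0.40 log2 units (adjusted p = 0.000818). They fell with TA by 1.89 ± 0.30 log2 units (adjusted p = 0.00307), 2.10 ± 0.64 log2 units (adjusted p = 0.0349) and 1.496 ± 0.37 log2 units (adjusted p = 0.0164). The fall of Ncapg was not called without any 1 of the model or TA replicates (adjusted p from 0.0524 to 0.118), and that of Ncaph without model replicate 1 (0.0729) or TA replicate 3 (0.0614).

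Genes of ubiquitin ligases in mitosis rose in all 3 members. Cdc20, which activates the anaphase-promoting complex, stood at 0.368, 1.62 and 0.445 CPM in normal, 7.46, 16.4 and 4.64 in model and 5.44, 1.47 and 1.13 in TA livers. Model replicate 2 stood far above the others, and TA replicate 1 reached above model replicate 3. Cdc20 rose by 3.57 ± 0.75 log2 units (adjusted p = 0.0024), and its log2 fold change with TA was -1.78 ± 0.65 (adjusted p = 0.06902), called without TA replicate 1 (-2.86, adjusted p = 0.0143). That change of Cdc20 was also called with DESeq2 (adjusted p = 0.0229), with no filter (0.0493) and with library totals (0.0212). Cdca3, a substrate adaptor that helps remove Wee1, stood at 1.25, 1.704 and 1.93 CPM in normal, 8.65, 11.6 and 3.29 in model and 4.83, 3.02 and 2.35 in TA livers. TA replicate 1 again lay above model replicate 3. Cdca3 rose by 2.26 ± 0.47 log2 units (adjusted p = 0.00218) and had -1.19 ± 0.44 log2 units (adjusted p = 0.0698) with TA, called without model replicate 3 (-1.56, adjusted p = 0.0227) or TA replicate 1 (-1.55, 0.0437). It was called lower with TA also by DESeq2 (adjusted p = 0.0322) and with library totals (0.0119). Ube2c, the ubiquitin-conjugating enzyme of the complex, rose by 2.81 ± 0.48 log2 units (adjusted p = 0.000686) and fell with TA by 2.12 ± 0.45 log2 units (adjusted p = 0.00841).

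**Figure D3:**
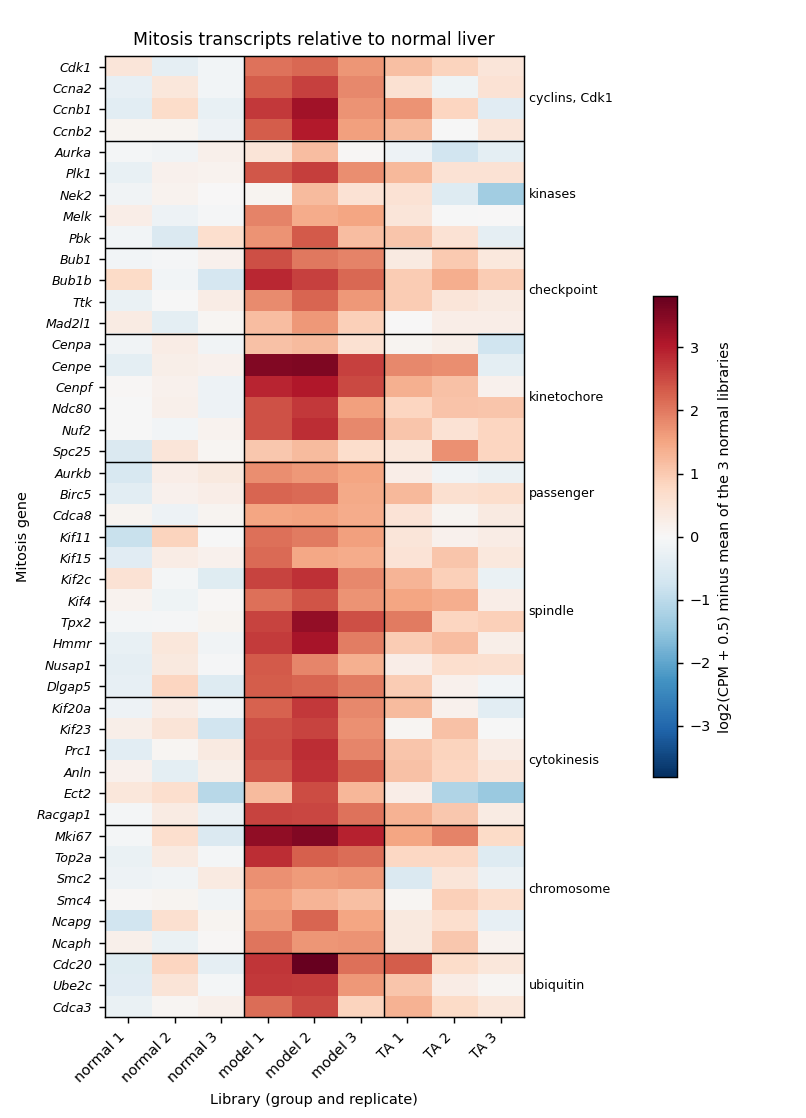
Level of each of the 45 members in each of the 9 libraries, as log2(CPM + 0.5) minus the mean of the 3 normal libraries (colour), ordered by role. The 3 model libraries are high in nearly every gene, and Aurka, Nek2 and Spc25 have the smallest log2 fold changes in model against normal, 0.71, 0.75 and 1.01.

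The main question of the study was what TA does on the MCD diet. In TA against model livers 37 of the 45 members fell, where 11.1% of all tested genes fell, and none rose, where 11.8% of tested genes rose. With edgeR, 0 members were higher at an unadjusted p under 0.05 and 43 were lower, where 18.8% and 17.9% of tested genes were. With DESeq2 or limma-voom 0 were called higher. The median log2 fold change was -1.89 against -0.01 for all tested genes, from -2.66 for Ect2 to 0.12 for Spc25. For 40 members all TA libraries lay below all model libraries, as for 20.1% of tested genes. The 8 members not called were Ccnb1, Nek2, Pbk, Spc25, Kif15, Kif4, Cdc20 and Cdca3, of which 7 had negative values. Falls numbered 3 of 4 among cyclins and Cdk1, 3 of 5 among kinases, 4 of 4 in the checkpoint, 5 of 6 at the kinetochore and 3 of 3 in the passenger complex. They numbered 6 of 8 among spindle motors and binders, 6 of 6 in cytokinesis, 6 of 6 in chromosome structure and 1 of 3 among ubiquitin ligases. Of the 33 members that met the count minimum without the model libraries 28 fell.

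The number called depended on single libraries. It was 21 without model replicate 1 and 19 without TA replicate 3, and 17 members were called lower in the fit of all libraries and under each of the 17 other settings. These were Ccna2, Plk1, Bub1, Mad2l1, Cenpf, Nuf2, Aurkb, Cdca8, Hmmr, Kif20a, Prc1, Anln, Racgap1, Mki67, Top2a, Smc2 and Ube2c. In model against normal 39 members were called higher throughout.

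**Figure D4:**
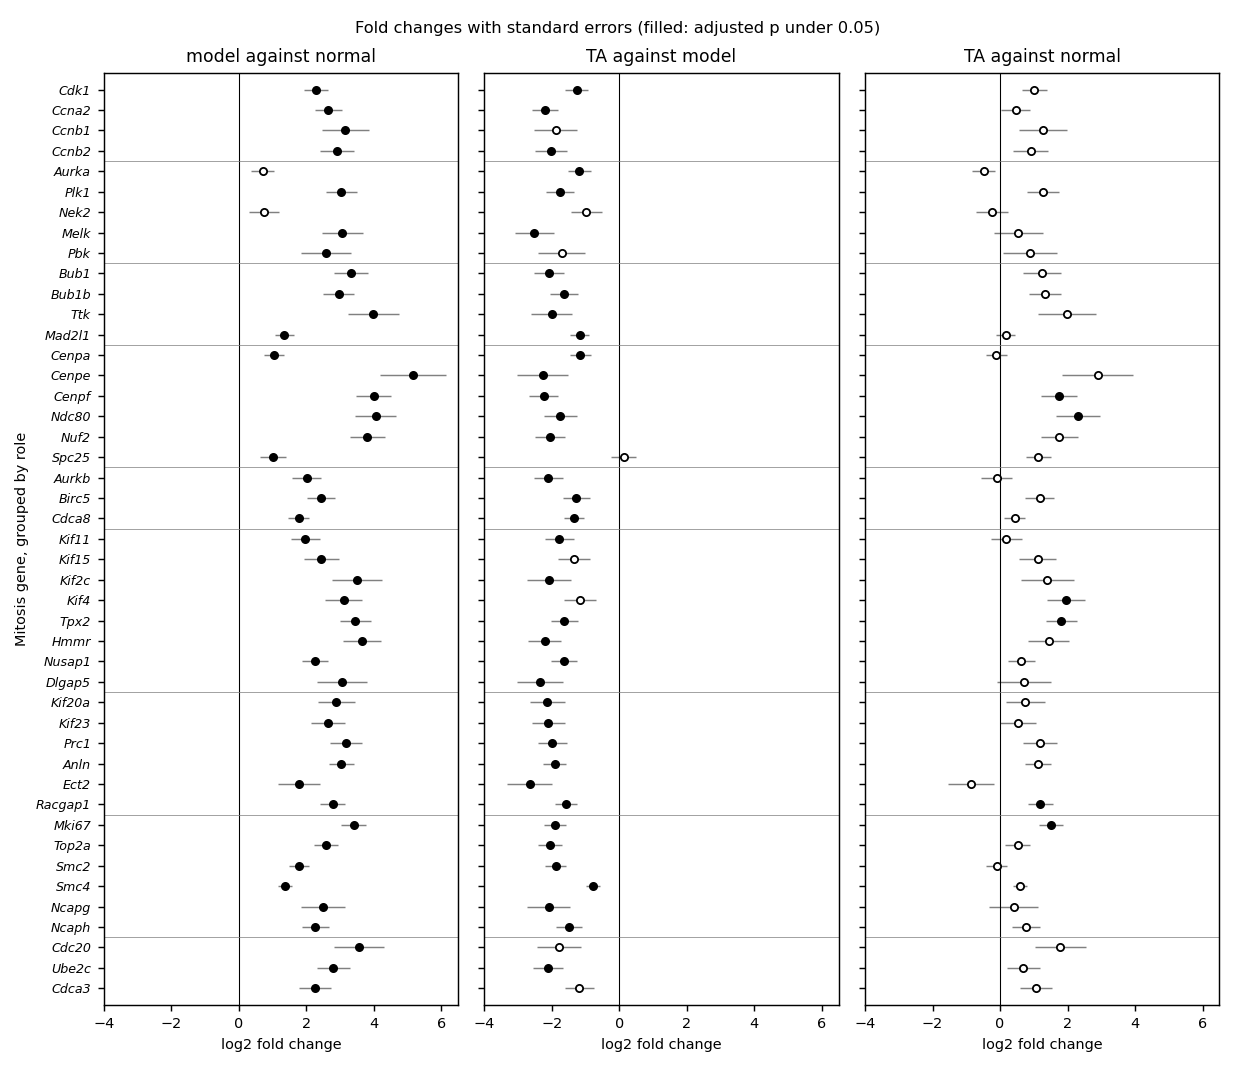
Log2 fold change of each member with its standard error in model against normal, TA against model and TA against normal. Filled points have an adjusted p under 0.05: 43 of the 45 members are higher in the first comparison, 37 lower in the second and 6 higher in the third.

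Few members passed the test in TA against normal livers. Of the 45, 6 were called higher, a share near the 10.7% of all tested genes, and none was called lower, where 5.03% were. With edgeR, 21 members were higher and 0 lower at an unadjusted p under 0.05, where 18.8% and 12.2% of tested genes were. With DESeq2 or limma-voom 0 were called lower. Those called were, by log2 fold change, Ndc80 with 2.31 ± 0.65 (adjusted p = 0.0325), Kif4 with 1.95 ± 0.57 (adjusted p = 0.0385), Tpx2 with 1.82 ± 0.46 (adjusted p = 0.0215), Cenpf with 1.75 ± 0.54 (adjusted p = 0.0488), Mki67 with 1.51 ± 0.36 (adjusted p = 0.0166) and Racgap1 with 1.19 ± 0.37 (adjusted p = 0.0481). The median of the 45 members was 1.02, or 2.03-fold, against 0.03 for all tested genes. All TA libraries lay above all normal ones for 16 members, as for 20.1% of tested genes, and below them, as for 16.1% of tested genes, for Aurka alone, with -0.48 ± 0.35 log2 units (adjusted p = 0.372). The other 28 overlapped. None of the 6 was called in every setting. Of all 45 members, 1 was called without normal replicate 1, 2 without normal replicate 2 and 0 without normal replicate 3. The count was 3 without model replicate 1 and 1 without TA replicate 2. The member called without normal replicate 1 was Bub1b (2.11, adjusted p = 0.0166), which is not among the 6. All 6 lost their call in that fit. Tpx2 had 1.18 without TA replicate 1 (adjusted p = 0.0788), and Cenpe, with 2.89 ± 1.06 log2 units (adjusted p = 0.0878) and 0 counts in TA replicate 3, was called without that library (3.44, adjusted p = 0.0123).

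The members shared an order of libraries within a group as well. Model replicate 3 was the lowest model library for 40 of the 45 members, or 88.9%, against 32.8% of all tested genes, and model replicate 2 was the highest for 30, or 66.7%, against 41.3%. TA replicate 3 was the lowest TA library for 29 members, or 64.4%, against 33.3%, and the highest for none. The order differed by role. All 4 cyclin and Cdk1 genes, all 5 kinases, all 3 passenger genes and all 3 ubiquitin ligase genes were highest in TA replicate 1, while all 6 chromosome structure genes were highest in TA replicate 2. Of 36 tested genes of DNA replication, which act in S phase, model replicate 2 was the highest for 5 and the lowest for 17. TA replicate 1 was the highest TA library for 29 members. Mitochondrial genes took 4.92%, 12.5% and 15.4% of the counts in TA replicates 1, 2 and 3, 11.6%, 7.55% and 7.36% in the model replicates and 6.59%, 7.80% and 6.45% in the normal replicates. Within the TA group the library highest for most members had the lowest mitochondrial share and the library lowest for most members the highest. The model group did not follow this: replicate 3, lowest for most members, had the lowest share, and replicate 1 the highest. No label names a batch, and the part of the mitochondrial share in the order of libraries or in the group differences was not tested.

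Levels of different genes can be compared only per length. By FPKM, as deposited, the order of the group means in model livers was led by Smc4 with 8.63 ± 1.66 (SD, n = 3), Cdc20 with 6.52 ± 3.498, Ccnb2 with 6.03 ± 2.55 and Mki67 with 4.74 ± 0.727. Each neighbour in this order of 4 differed from the next by less than the larger SD of the pair. In normal livers Smc4 led again with 2.07 ± 0.186, followed by Aurka with 1.32 ± 0.192 and Spc25 with 1.06 ± 0.408. Group means over the members spanned 0.0155 to 2.07 FPKM in normal, 0.336 to 8.63 in model and 0.0681 to 3.33 in TA livers.

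Transcription regulators of mitotic genes rose and fell in model livers in shares near those of all tested genes. The list joins factors that act on the CHR and CCAAT elements with E2F factors, and these were not counted apart. Of 21 tested regulators 5 rose and 4 fell in model livers, where 25.4% and 22.6% of tested genes did. With TA 0 rose and 5 fell, where 11.8% and 11.1% did. The median log2 fold changes were 0.15 and -0.14, with single genes ranging from -0.98 to 2.95 and from -2.35 to 0.68. With TA 2 were higher at an unadjusted p under 0.05, where 18.8% of tested genes were. DESeq2 called 2 higher with TA and limma-voom 0. With library totals 14 rose and 0 fell in model livers and 11 fell with TA. With that scaling 7269 of all 13200 tested genes rose and 831 fell in model livers, and 5721 fell with TA. The same numbers stand beside the counts with library totals for the lists below. Nfya, the DNA-binding subunit of NF-Y, stood at 11.7, 10.5 and 9.34 CPM in normal, 38.98, 36.5 and 32.4 in model and 21.6, 17.97 and 18.8 in TA livers. Its 3 groups were apart, and it rose by 1.77 ± 0.16 log2 units (adjusted p = 9.17e-06) and fell with TA by 0.88 ± 0.15 log2 units (adjusted p = 0.00374). Rbl1, which encodes p107, stood at 2.73, 2.39 and 2.52 CPM in normal, 15.4, 10.3 and 11.2 in model and 4.77, 5.06 and 4.87 in TA livers. It too was apart in all groups, with 2.27 ± 0.23 log2 units (adjusted p = 2.23e-05) and a fall of 1.33 ± 0.22 log2 units (adjusted p = 0.00346). In the other direction Rbbp4, a MuvB subunit, had -0.97 ± 0.18 log2 units (adjusted p = 0.00108) in model against normal, and Nfyb had 0.68 ± 0.23 log2 units (adjusted p = 0.0555) in TA against model. Rbbp4 shares exon bases with Gm26722 (9.10%) and Sync (8.94%) on the other strand. Falls with TA numbered 3 without model replicate 1 or TA replicate 3, and falls in model livers 2 without normal replicate 1. Members with and without TTTGAA had similar medians in model against normal, 2.79 over 28 and 2.76 over 10, as a description with no test. Among 168 other tested genes with TTTGAA within 50 bases of the start and a CCAAT box, 31.5% rose and 17.3% fell, against 24.6% and 23.1% of 10474 other genes with a promoter.

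Regulators of CDK1 and parts of the anaphase-promoting complex were mixed. Among all tested genes 25.4% rose and 22.6% fell in model livers, and 11.8% rose and 11.1% fell with TA. Of 13 tested CDK1 regulators 5 rose and 2 fell in model livers, and 0 rose and 2 fell with TA. With TA 2 were higher at an unadjusted p under 0.05, where 18.8% of tested genes were. DESeq2 called 1 of the regulators higher with TA and limma-voom 0. With library totals 11 rose and 1 fell, and 9 fell with TA. Ccnf, cyclin F, of a ubiquitin ligase, went against the members with -1.97 ± 0.21 log2 units (adjusted p = 3.00e-05) in model against normal. Wee1, the kinase that holds CDK1 inactive, stood at 1.69, 1.79 and 2.67 CPM in normal, 10.3, 6.68 and 9.23 in model and 11.5, 23.2 and 12.9 in TA livers. Its normal libraries were lowest and its TA libraries highest, with 2.09 ± 0.33 log2 units (adjusted p = 0.000418) in model against normal and 0.85 ± 0.29 log2 units (adjusted p = 0.0532) in TA against model. Cdkn3, a CDK phosphatase, and Bora, which helps activate Plk1, fell with TA by 2.66 ± 0.64 log2 units (adjusted p = 0.0143) and 1.05 ± 0.32 log2 units (adjusted p = 0.03597). Of 17 genes of the anaphase-promoting complex 2 rose and 1 fell in model livers, and 1 rose and 1 fell with TA. With library totals 14 rose and 0 fell in model livers, and 0 rose and 15 fell with TA. Anapc4 had 0.51 ± 0.13 log2 units (adjusted p = 0.00744) in model against normal and -0.58 ± 0.13 log2 units (adjusted p = 0.0104) in TA against model. Cdc26 had -0.49 ± 0.15 log2 units (adjusted p = 0.0157) in model against normal, and 0.19 with library totals, and Anapc13 rose by 0.77 ± 0.22 log2 units (adjusted p = 0.02598) with TA. Anapc13 shares 10.1% of its exon bases with Cep63 on the other strand.

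Kinetochore and spindle genes outside the 45 followed them in part. Among all tested genes 25.4% rose and 22.6% fell in model livers, and 11.8% rose and 11.1% fell with TA. Of 31 other spindle and cytokinesis genes tested 24 rose and 0 fell in model livers, with a median log2 fold change of 2.56, and 0 rose and 14 fell with TA, with a median of -1.58. No gene of this list was lower in model livers or higher with TA at an unadjusted p under 0.05, or called so with DESeq2 or limma-voom. At that unadjusted cut 26.3% of tested genes were lower in model livers and 18.8% higher with TA. Arhgap11a rose by 2.95 ± 0.30 log2 units (adjusted p = 2.02e-05), and Iqgap3 fell with TA by 2.98 ± 0.41 log2 units (adjusted p = 0.00193). Psrc1, a microtubule binder, stood at 0.221, 0.0852 and 0.222 CPM in normal, 3.27, 3.86 and 2.95 in model and 1.87, 4.25 and 2.78 in TA livers. It rose by 4.17 ± 0.51 log2 units (adjusted p = 7.88e-05) and, unlike most of the members, its TA and model libraries overlapped, with -0.18 ± 0.38 log2 units (adjusted p = 0.756). Kif22 fell with TA by 1.96 ± 0.40 log2 units (adjusted p = 0.00683). The 14 falls were 5 without model replicate 1, 7 without TA replicate 2 and 5 without TA replicate 3, and 27 with library totals, 20 with DESeq2 and 18 with limma-voom. With library totals 29 of these genes rose in model livers. Of 38 other kinetochore and centromere genes 18 rose and 1 fell in model livers, with a median of 1.32, and 1 rose and 8 fell with TA, with a median of -0.67. Incenp, the scaffold of the passenger complex, rose by 2.24 ± 0.27 log2 units (adjusted p = 6.44e-05) and fell by 1.42 ± 0.25 log2 units (adjusted p = 0.00435). Spdl1, which brings dynein to kinetochores, rose by 3.57 ± 0.53 log2 units (adjusted p = 0.000283), and Cenpi fell with TA by 3.14 ± 0.69 log2 units (adjusted p = 0.00921). Zwint, a kinetochore protein at 74.5, 69.5 and 74.9 CPM in normal, 39.4, 45.6 and 43.1 in model and 70.3, 47.1 and 65.2 in TA livers, moved the other way, with -0.77 ± 0.16 log2 units (adjusted p = 0.002498) in model against normal and 0.51 ± 0.16 log2 units (adjusted p = 0.0417) in TA against model, the latter -0.056 with library totals. With library totals 30 rose and 0 fell in model livers, and 0 rose and 24 fell with TA. The 8 falls were 4 without model replicate 1, 3 without model replicate 3 and 4 without TA replicate 3.

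Cohesin is the ring that holds sister chromatids. Of 15 genes of this list 3 were higher and 3 lower in model livers, where 25.4% and 22.6% of tested genes were. With TA 1 was higher and 1 lower, where 11.8% and 11.1% were. These counts are near or below the shares of all tested genes. With library totals 10 were higher and 0 lower in model livers, and 0 higher and 13 lower with TA. Espl1 (separase) and Cdca5 (sororin) rose by 3.20 ± 0.65 log2 units (adjusted p = 0.00197) and 3.03 ± 0.63 log2 units (adjusted p = 0.00228). Pttg1 (securin), the inhibitor of separase, had -0.74 ± 0.19 log2 units (adjusted p = 0.00843) in model against normal and rose by 0.64 ± 0.19 log2 units (adjusted p = 0.0353) with TA. Esco2, which acetylates cohesin, fell with TA by 1.63 ± 0.47 log2 units (adjusted p = 0.0283). Of the 4 other condensin subunits Ncapg2 and Ncapd2 rose by 2.61 ± 0.29 log2 units (adjusted p = 4.37e-05) and 1.46 ± 0.29 log2 units (adjusted p = 0.00194) and fell with TA by 1.49 ± 0.27 log2 units (adjusted p = 0.00504) and 1.11 ± 0.29 log2 units (adjusted p = 0.0192), while Ncaph2 had -0.19 ± 0.16 log2 units (adjusted p = 0.341) in model livers and Ncapd3 had 0.38 ± 0.19 log2 units (adjusted p = 0.177) with TA. With library totals Ncaph2 had 0.49 and Ncapd3 -0.21. Ncaph2 shares exon bases with Sco2 (19.7%) and Tymp (12.7%) on the other strand. DNA replication genes stood between these lists, with 18 of 36 tested genes higher and 3 lower in model livers (median 0.68) and 1 higher and 12 lower with TA (median -0.59). With library totals 26 were higher and 1 lower in model livers, and 1 higher and 23 lower with TA. The 12 falls were 7 without model replicate 1, model replicate 3 or TA replicate 3. Mcm6, of the replicative helicase, and Uhrf1, which maintains DNA methylation, rose by 2.002 ± 0.24 log2 units (adjusted p = 6.10e-05) and 3.11 ± 0.38 log2 units (adjusted p = 8.45e-05), and Mcm2 fell with TA by 1.66 ± 0.25 log2 units (adjusted p = 0.00258). Mcm10, which helps start replication forks, went the other way at 75.6, 86.5 and 81.4 CPM in normal, 17.5, 31.5 and 15.6 in model and 71.1, 71.1 and 83.2 in TA livers. It fell to a log2 fold change of -1.92 ± 0.24 (adjusted p = 8.47e-05) in model livers and rose by 1.81 ± 0.24 log2 units (adjusted p = 0.00181) with TA.

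**Figure D5:**
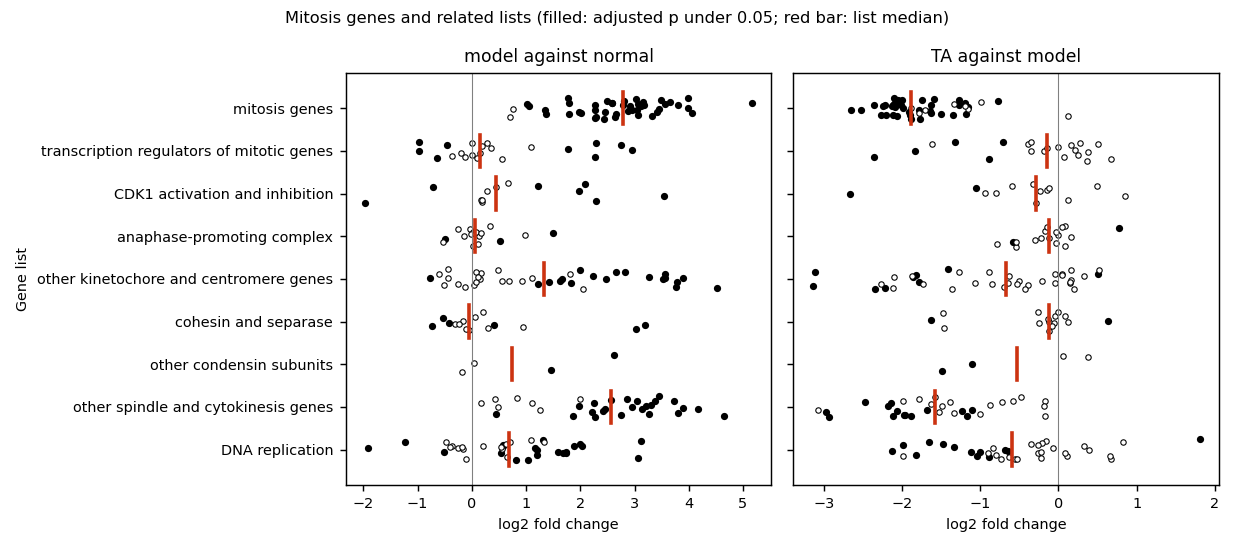
Log2 fold changes of the 45 members and of the genes of 8 related lists in model against normal and TA against model, with each list's median (red bar) and genes of adjusted p under 0.05 filled. The members have medians of 2.78 and -1.89, other spindle and cytokinesis genes 2.56 and -1.58, and genes of the anaphase-promoting complex 0.06 and -0.12.

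Markers of several of the liver's cell types differed between the same groups, while the summed B and plasma cell markers overlapped in all 3. Among all tested genes 25.4% rose and 22.6% fell in model livers, and 11.8% rose and 11.1% fell with TA. Hepatocyte markers, which identify the tissue as liver, summed to 130021 to 158952 CPM in normal, 50550.5 to 82328 in model and 114005 to 155164 in TA libraries. Of 11 such markers 10 fell in model livers and 8 rose with TA, the latter 4 without model replicate 1 or 3 or TA replicate 2 or 3. Macrophage and monocyte markers summed to 358 to 395 CPM in normal, 2188 to 2626 in model and 1010.4 to 1362 in TA libraries, and of 12 all rose in model livers and 9 fell with TA. In the same order of groups T and NK cell markers summed to 9.19 to 19.2, 49.5 to 62.0 and 35.8 to 43.4 CPM, with 8 of 11 higher in model livers. None was called with TA, where 2 were lower at an unadjusted p under 0.05, as were 17.9% of tested genes. With each of DESeq2 and limma-voom 1 was called lower with TA. Neutrophil markers summed to 4.82 to 24.8, 36.9 to 90.3 and 19.9 to 32.3 CPM, with 5 of 5 higher in model livers (2 without model replicate 1, 3 without normal replicate 2 or 3) and 1 lower with TA. Among the neutrophil markers Ly6g was at 0 in all normal libraries and Mpo in all TA libraries. B and plasma cell markers summed to 9.26 to 57.3, 33.1 to 46.1 and 28.1 to 46.5 CPM. Of 7 such markers 2 were higher in model livers, near the share of all tested genes, and none was called with TA. Stellate cell and fibroblast markers summed to 284 to 397, 880.4 to 2132 and 506 to 1147 CPM, with 8 of 10 higher in model livers and 1 lower with TA. Cholangiocyte markers summed to 64.4 to 70.3, 126 to 553 and 133 to 408 CPM, with 6 of 8 higher in model livers (2 with limma-voom). None of them was called with TA. Endothelial markers summed to 337 to 343, 599.6 to 778 and 290.0 to 537 CPM. Of these 6 of 8 were higher in model livers and 4 lower with TA (1 without model replicate 1 or TA replicate 3). Red cell markers summed to 320.4 to 413, 237 to 249 and 373 to 709 CPM, with 1 of 7 lower in model livers and 6 higher with TA. With library totals 8 hepatocyte markers were lower in model livers and 5 higher with TA. Lower with TA at that scaling were 12 macrophage and monocyte, 5 T and NK cell and 4 neutrophil markers. So were 7 stellate cell, 7 endothelial, 1 B and plasma cell and 1 cholangiocyte marker. Of the red cell markers 1 was higher and 1 lower in model livers and 3 were higher with TA. Model replicate 2, highest for most members, had the lowest summed cholangiocyte, stellate and macrophage markers of the model group. Its summed hepatocyte markers were the highest there. In the TA group the order was the reverse. TA replicate 1, highest of the TA libraries for most members, had the lowest summed hepatocyte markers of that group. Its summed cholangiocyte, stellate and macrophage markers were the highest, the macrophage sum by little (1361.9 against 1357.7 CPM in TA replicate 2). The part of any cell type in the values of the members was not tested.

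The authors' deposited tables, made with DESeq per their names, listed 42 of the 45 members higher and 0 lower in model against normal, out of 2910 higher and 2510 lower among 16828 genes, at an adjusted p under 0.05. For TA against model the authors' deposited table listed 0 members higher and 32 lower, out of 893 higher and 924 lower among 16727 genes.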

How the data were processed

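Per the labels' protocols, RNA was isolated with Trizol and sequencing libraries were prepared with an NEBNext Ultra kit. The build given in the submitters' processing notes is mm9, and the aligner, counter and use of strand are not stated in the sources used here. The authors deposited read counts and FPKM values for 21898 genes, per the file headers. All tests used the counts, and levels per length used FPKM. These FPKM values equalled the counts scaled by gene length and library total, without TMM, to within 3.54 ppm. The deposited comparison tables gave the authors' p-values, used at an adjusted p under 0.05, and a mean signal per gene, not used further. 1 emptied line of the expression table was left out.

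The 45 members and all lists were chosen with earlier results of these data known. The analysis used edgeR 4.0.16 in R 4.3.3. Genes were filtered with filterByExpr by group (count at least 10, total at least 15), leaving 13200. With TMM factors, 1 quasi-likelihood fit of the 3 groups took in all 9 libraries. Benjamini-Hochberg adjustment ran across all genes tested, and every adjusted p of a gene is from edgeR unless named otherwise. The error after a log2 fold change is its standard error (n = 3 libraries in each group), and log2 units are the same scale. Other settings were DESeq2 size factors, library totals, no filter, 10 counts in at least 3 libraries, DESeq2 1.42.0, limma-voom (limma 3.58.1), the replicate number as a block, the 6 libraries compared, and each library left out. The procedure was tested on simulated data. Nothing in the labels ties a replicate number to an animal or day, so the block was left out of the main model.

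Values in every library are given for Mki67, Top2a, Cdk1, the 2 members of each role with the highest mean CPM and members not called in model against normal. For each related list the genes named were the 2 with the smallest p in each main comparison and the smallest p in the other direction. Values by library of some list genes were added after they had been seen. Promoters came from RefSeq on GRCm38.p6, and the coordinates in the expression table were not used.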

Additional observations from a re-analysis of the deposited data

How the results depend on the processing

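Model against normal was the firmer comparison. The number of members called higher was 39 to 44 when 1 library was left out and 45 with library totals, and their median log2 fold change was 2.62 to 2.93 with 1 library left out. With library totals that median was 3.46, and for TA against model -2.36, since that scaling moves all genes. The number called lower in TA against model was 19 to 38 with 1 library left out, and the median was -2.16 to -1.66. For TA against normal 0 to 6 members were called higher with 1 library left out, 1 with limma-voom and 3 with the 6 libraries compared, and the median was 0.75 to 1.26. The replicate number did not pair the libraries (1 of 9 same-number pairs had a correlation over 0.1 after removal of group means, range -0.202 to 0.115). With the replicate block the calls were 43 higher, 35 lower and 5 higher in the 3 comparisons.

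Some signs turned. Over the fits without 1 library, log2 fold changes in TA against normal ran from -1.01 to 0.13 for Nek2, -0.12 to 1.11 for Melk, -0.012 to 0.35 for Mad2l1, -0.30 to 0.15 for Cenpa, -0.46 to 0.19 for Aurkb and -0.21 to 0.86 for Kif11. They ran from -0.16 to 2.38 for Dlgap5, -0.19 to 1.13 for Kif20a, -0.064 to 0.91 for Kif23, -0.49 to 0.13 for Smc2 and -0.13 to 1.14 for Ncapg. With library totals Cenpa had 0.027, Aurkb 0.031 and Smc2 0.0056, and with limma-voom Aurkb had 0.038. In TA against model Spc25 ran from -0.36 to 0.38 without 1 library, and had -0.45 with library totals and -0.0041 with limma-voom. With library totals Cdc26 had 0.19 and Ncaph2 0.49 in model against normal, and Zwint -0.056 and Ncapd3 -0.21 in TA against model. The cause was not tested. Low counts limit the precision: 18 of the 45 members had 10 or more counts in every normal library.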
